A study of Mus musculus with 32 samples.

Results

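The genes described here encode matrix metalloproteinases (Mmp2, Mmp3, Mmp9 and Mmp14) and tissue inhibitors of metalloproteinases (Timp1, Timp2, Timp3 and Timp4). They were followed in RNA of the mouse cardiac ventricle in cardiac failure, in cardiac hypertrophy and in wild type mice. Members were all probe sets annotated with a single one of these 8 gene symbols. There were 12 such probe sets among 24965 on both Affymetrix array types together, all of them on the first type, and they covered 7 of the 8 genes. No probe set was annotated to Timp4 alone, so that gene was not analysed here. The failure group (3 arrays of the first type) and the hypertrophy group (8 arrays) both carried an AT1 transgene restricted to the heart, and the wild type group (5 arrays) carried none. The labels leave AT1 unexplained; it is the common short name of the angiotensin II type 1 receptor. No promoter, founder line, age, sex or strain was given, and the labels do not say whether each array stands for its own animal. The p-values therefore measure the spread between these samples, which may be partly technical. Failure was not compared with a nontransgenic failing heart, so transgene and disease cannot be told apart in the comparisons with wild type. Failure against hypertrophy sets transgenic groups against each other.

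Matrix metalloproteinases are zinc-dependent proteases that are made as inactive proenzymes and cut collagens, gelatins, proteoglycans and other proteins around cells. The inhibitors bind the active site of these proteases and also serve in activation, since Timp2 links the Mmp2 proenzyme to the membrane-bound protease Mmp14, which cleaves it. In the heart both families are made by fibroblasts, muscle cells and infiltrating leukocytes, and their balance is known for its part in chamber remodelling. In whole ventricle, more cells of a type and more transcript per cell cannot be told apart.

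The deposited values are linear intensities, 1 per probe set and array, called signals below. Array medians ranged from 91.8 to 121 on the first type. Of the ventricular muscle markers, 9 of 10 had a probe set there, and the brightest probe set of each lay between 3173 and 9799 in every array. The control probe sets for Gapdh gave a 5' signal that was 0.468 and 0.0487 of the 3' signal in hypertrophy replicates 6 and 7, while the wild type arrays averaged 0.889 ± 0.0543 (SD, n = 5). For Actb this ratio averaged 0.960 ± 0.173 over failure arrays (SD, n = 3), 0.701 ± 0.204 over hypertrophy arrays (SD, n = 8) and 0.623 ± 0.0819 over wild type arrays (SD, n = 5). Xist exceeded the Y-linked Eif2s3y in 2 of 3 failure, 4 of 8 hypertrophy and 2 of 5 wild type arrays. Among failure arrays the exception was replicate 3, with Xist at 14.3 and Eif2s3y at 43.7.

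A probe set was tested when its signal reached the median of its own array in at least 3 arrays. This left 6 of the 12 probe sets, 1 each for Mmp2, Mmp9, Mmp14, Timp1, Timp2 and Timp3. Of these, Mmp2 met the limit only by way of the hypertrophy arrays. The fit was limma over all 16 arrays, on log2 signals raised to a floor of 39.5, with Benjamini-Hochberg adjustment over all 6980 tested probe sets of the type and a threshold of 0.05. None of the 6 passed in any of the 3 comparisons. In failure against wild type 0.143% of all tested probe sets passed, while 0% did for hypertrophy against wild type or for failure against hypertrophy. At an unadjusted limma p under 0.05 there were 2 members in failure against wild type, 1 when hypertrophy was set against wild type and 0 for failure against hypertrophy, where 10.7%, 4.47% and 10.1% of all tested probe sets lay.

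**Figure D1:**
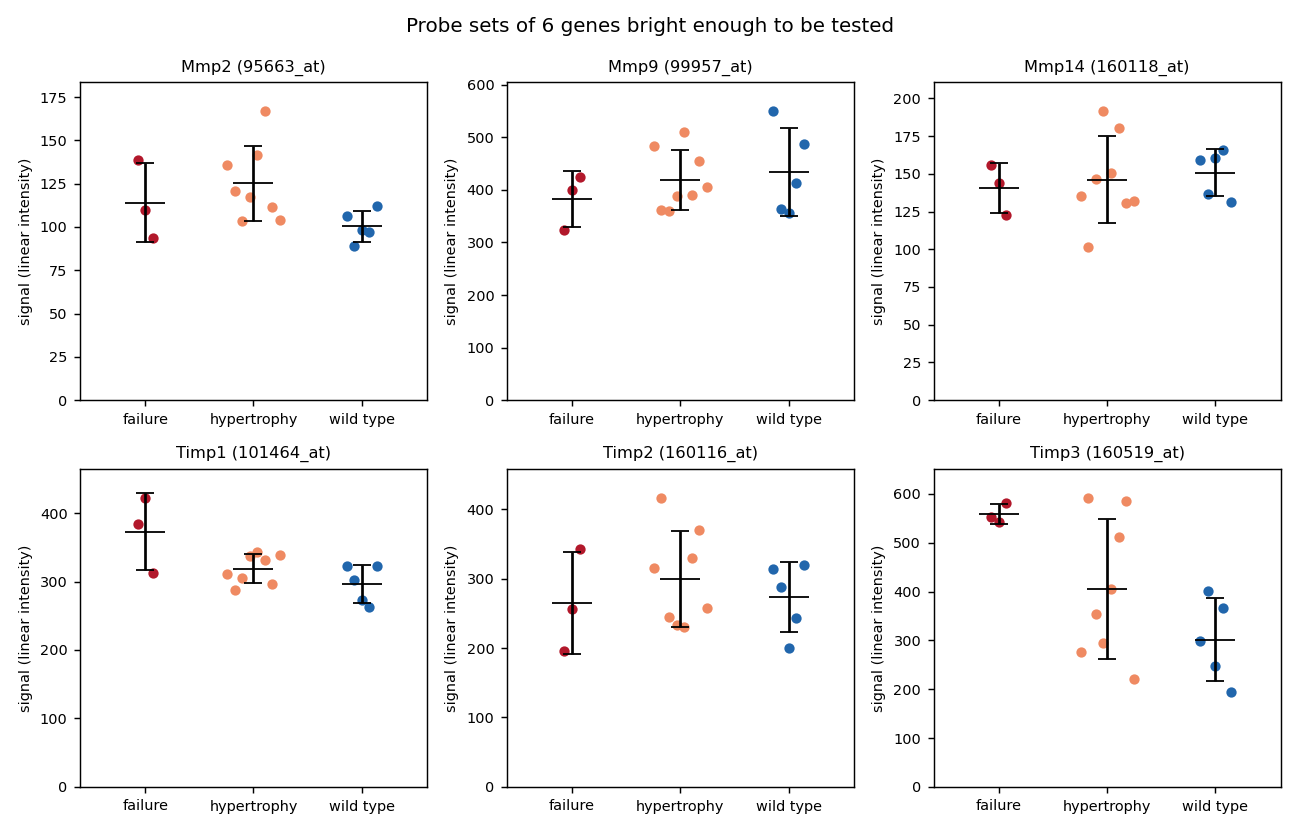
Signal (linear intensity, y axis from 0) of the 6 tested probe sets in each array of the first type, by group (failure n = 3, hypertrophy n = 8, wild type n = 5); points are arrays, the horizontal line is the mean and the bar is 1 SD. The 3 failure arrays lie above all wild type arrays for Timp3, and the other 5 probe sets overlap between all groups.

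Timp3 encodes the inhibitor that stays bound to the extracellular matrix and also blocks Adam17, the protease that releases tumour necrosis factor. Its signal was 554, 542 and 582 in the failure arrays and 299.7, 401, 247, 365 and 194 in the wild type arrays. All 3 failure arrays thus lay above all 5 wild type arrays, a separation in this direction found for 8.58% of tested probe sets. Mean signals were 559 ± 20.8 over failure arrays (SD, n = 3) and 301 ± 84.6 over wild type arrays (SD, n = 5). The log2 difference was 0.94 ± 0.30 (SE), a ratio of 1.92 with a 95% interval of 1.24 to 2.98, which limma did not call (adjusted p = 0.259, unadjusted p = 0.00612). In hypertrophy the signal was lowest at 221, with a median of 380 and a highest value of 592. That range spans the highest 4 of the wild type values and the whole failure range. Hypertrophy replicates 2 and 7 (592 and 586) were above every failure array, and replicates 8, 1 and 4 (221, 276 and 294) were below the wild type mean. The difference from wild type was 0.39 ± 0.23 (log2, SE; limma adjusted p = 0.960), 0.22 without hypertrophy replicates 6 and 7 and 0.24 without wild type replicate 5. Failure against hypertrophy gave 0.55 ± 0.28 (log2, SE; limma adjusted p = 0.518).

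The spread of Timp3 was narrowest in failure, although this was not tested. Its SD on the log2 scale was 0.053 in failure, at percentile 9.23 of all tested probe sets in that group. In hypertrophy the SD was 0.53, at percentile 91.9, and in wild type it was 0.43, at percentile 96.2. With 3 arrays the failure SD is itself poorly determined. Over the 16 arrays the probe sets of other genes most like Timp3 were those of Man2a1, a Golgi mannosidase (Pearson r = 0.85), Zbtb16, a zinc finger transcription factor (r = 0.84), and Svil, an actin-binding protein of the membrane skeleton (r = 0.81). All points of these descriptions share arrays, and 4.80% of tested probe sets had r above 0.5 with Timp3.

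Timp1 encodes a secreted inhibitor that forms a complex with the Mmp9 proenzyme and is known to be induced in injured tissue. Its signal was 384, 422 and 313 in the failure arrays and 323, 302, 273, 263 and 323 in the wild type arrays. Failure replicates 1 and 2 were above every wild type array, and replicate 3 lay inside the wild type range. The means were 373 ± 55.7 over failure arrays (SD, n = 3) and 297 ± 27.8 over wild type arrays (SD, n = 5). The log2 difference was 0.32 ± 0.12 (SE), a ratio of 1.25 with a 95% interval of 1.06 to 1.48 (limma adjusted p = 0.311, unadjusted p = 0.0124). In hypertrophy Timp1 was lowest at 287, with a median of 321 and a highest value of 343, a range that overlaps both other groups. Its log2 SD there, 0.098, was at percentile 2.42 of all tested probe sets. Hypertrophy differed from wild type by 0.11 ± 0.09 (log2, SE; limma adjusted p = 0.965) and failure from hypertrophy by 0.22 ± 0.11 (log2, SE; limma adjusted p = 0.509). The first of these was 0.063 without wild type replicate 4, and the second was 0.12 without failure replicate 2 and 0.34 without replicate 3. Most like Timp1 over the 16 arrays were Sox6, a transcription factor gene (r = 0.86), Ctsk, the gene of the collagen-degrading cathepsin K (r = 0.86), and Dda1 (r = 0.84), while 7.16% of tested probe sets had r above 0.5.

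Calls for both inhibitors depended on how arrays were weighted. With limma array weights, which gave failure replicate 2 the highest weight (3.45) and hypertrophy replicate 1 the lowest (0.253), Timp1 passed in failure against wild type at a log2 difference of 0.45 (limma adjusted p = 0.00411). Timp3 passed there at 0.95 (limma adjusted p = 0.0071). The same fit called 14.4% of all tested probe sets, against 0.143% without weights, so 2 of 6 members stands beside a far larger background.

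Timp1 and Timp3 also differed in how they ran with fibroblast markers over all 16 arrays, though hardly over the 8 hypertrophy arrays. On the first type 12 of 14 listed fibroblast markers were tested, and none was listed at 0. Their summed signal was 5735 to 9950 in failure, 4307 to 8766 in hypertrophy and 5305 to 6385 in wild type. Their mean log2 signal was 8.99, 8.98 and 7.91 in failure replicates 1, 2 and 3, against 7.94 to 8.22 in wild type. Timp1 was likewise high in failure replicates 1 and 2 and within the wild type range in replicate 3. Xist was also high in replicates 1 and 2 (160 and 129) and low in replicate 3 (14.3), and Timp1 is X-linked. The array medians were also higher in replicates 1 and 2 (120.5 and 119.6) than in replicate 3 (109.5). In these 3 arrays marker level, Xist and array median cannot be told apart. Over the 16 arrays Timp1 had r = 0.61 with the marker mean (0.42 after subtracting group means, 0.077 over the 8 hypertrophy arrays). Timp3 was as high in failure replicate 3, where the marker mean was below every wild type array, as in replicates 1 and 2. Its r was 0.27 (-0.058 after subtracting group means, -0.059 over the 8 hypertrophy arrays). Endothelial markers were 7 of 10 tested on the first type, with summed signals of 1914 to 2203 in failure, 1127 to 2245 in hypertrophy and 1650 to 2173 in wild type. Their mean log2 signal had r = 0.39 with Timp3 (0.27 after subtracting group means) and 0.26 with Timp1 (0.019 after subtracting group means). On either type 8 endothelial markers were tested in failure against wild type, with a median difference of 0.28. Of these, 3 had a limma p under 0.05 before adjustment and were higher in failure. They were Vwf at 0.88, Tie1 at 0.45 and Esam at 0.45 (log2, limma adjusted p = 0.199, 0.149 and 0.235). Of the 8 differences, 6 were positive and 2 negative, the latter Kdr at -0.23 and Eng at -0.07. A p this small was found for 10.7% (first type) and 12.2% (second type) of all tested probe sets. With the mean log2 signal of macrophage and neutrophil markers, Timp3 had r = -0.34 (-0.66 after subtracting group means) and Timp1 0.46 (0.40). With the log2 Gapdh ratio, Timp3 had r = -0.36 (-0.51) and Timp1 0.17 (0.17). The part of fibroblast, endothelial or leukocyte content in the Timp1 and Timp3 differences was not tested.

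**Figure D2:**
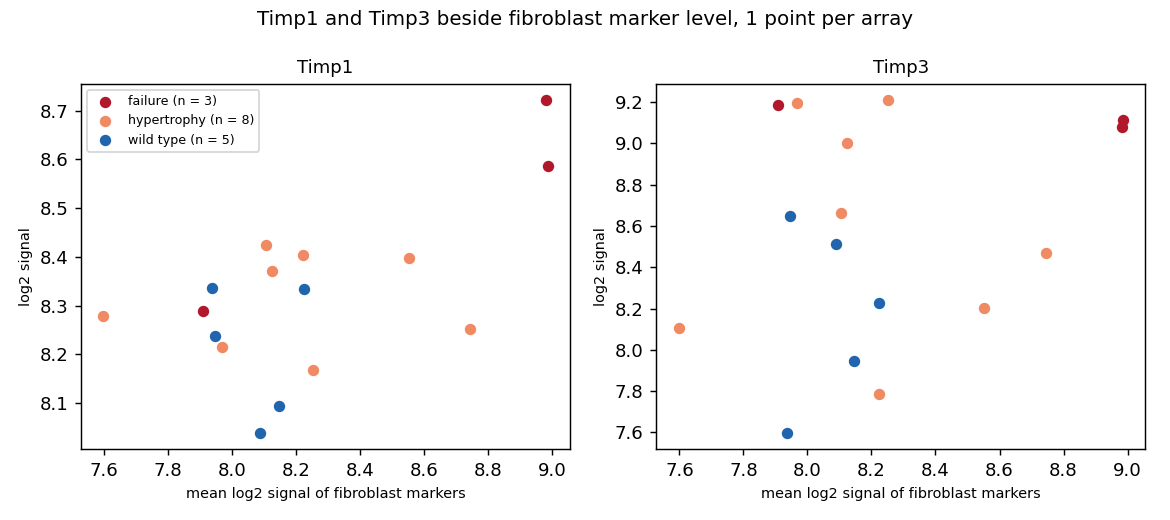
Log2 signal of Timp1 (left) and Timp3 (right, y axes) against the mean log2 signal of 12 fibroblast markers (x axis), 1 point per array, for failure (n = 3), hypertrophy (n = 8) and wild type (n = 5). The failure arrays at marker means of 8.98 and 8.99 have the highest Timp1 signals, whereas all 3 failure arrays are high for Timp3.

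The start-site windows of these genes are shown because, among the 6 tested probe sets, those of Timp3 and Timp1 differed most from wild type in failure. Each spans 250 bases before to 50 after the RefSeq start on GRCm38.p6, on the plus strand, at chr10:86300162-86300461 for Timp3 and chrX:20869916-20870215 for Timp1. Capitals mark matches on either strand to a GC box (GGGCGG) or a CCAAT box.
Timp3: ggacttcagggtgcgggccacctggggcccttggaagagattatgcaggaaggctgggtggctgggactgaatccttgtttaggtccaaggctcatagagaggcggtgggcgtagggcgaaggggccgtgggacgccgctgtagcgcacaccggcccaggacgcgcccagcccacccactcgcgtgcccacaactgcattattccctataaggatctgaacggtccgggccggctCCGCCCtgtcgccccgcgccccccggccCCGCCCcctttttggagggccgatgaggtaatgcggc
Timp1: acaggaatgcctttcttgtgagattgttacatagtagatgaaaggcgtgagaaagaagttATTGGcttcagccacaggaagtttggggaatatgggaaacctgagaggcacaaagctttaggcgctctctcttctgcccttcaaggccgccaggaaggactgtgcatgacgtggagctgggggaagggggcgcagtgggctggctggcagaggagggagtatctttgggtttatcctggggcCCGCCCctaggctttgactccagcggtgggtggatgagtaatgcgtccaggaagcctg
The Timp3 window held 2 GC boxes, and the Timp1 window held 1 GC box and 1 CCAAT box. GC boxes were found in 35.7% and CCAAT boxes in 37.4% of 32851 mouse windows of this length. Neither window held an exact match to TGANTCA, the AP-1 motif, or TATAAA, the TATA box, which 7.81% and 13.6% of all windows held. Inexact matches were not searched. Both windows hold stretches that differ from TGANTCA in 1 base, among them tgagtaa in Timp1 and tgaatcc in Timp3. How often other windows hold such stretches was not determined. Of the 6 members with a window in the table, Mmp3 was the one with both an AP-1 and a TATA match, and Timp4 had none of the 4 motifs. None of the motifs contains another, and a match is no evidence of a bound factor.

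Timp2, the inhibitor that takes part in Mmp2 activation, was represented by 3 probe sets that disagreed. The brightest had signals of 196, 256 and 342 in failure and 313, 288, 201, 244 and 319.5 in wild type. In hypertrophy it ran from 231 through a median of 287 to 416. All groups overlapped, and failure differed from wild type by -0.06 ± 0.22 (log2, SE; limma adjusted p = 0.964), a ratio of 0.959 with a 95% interval of 0.693 to 1.33. The difference was 0.14 without failure replicate 1 and -0.26 without replicate 3, so it has no direction. Hypertrophy differed from wild type by 0.12 ± 0.17 (0.017 without wild type replicate 3) and failure from hypertrophy by -0.18 ± 0.21 (log2, SE), again without a call.

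The second Timp2 probe set was under the brightness limit and outside the fit. Its signals were 106, 104 and 119 in failure and 86.7, 81.4, 99.95, 86.4 and 81.8 in wild type. In hypertrophy they ran from 61.2 through a median of 77.6 to 95.4. All 3 failure arrays lay above every array of the other groups, as 8.58% of tested probe sets did against wild type and 1.75% against hypertrophy. These shares are of the brighter, tested probe sets, to which this one does not belong. The share separated from both groups at once was not determined. When all non-control probe sets were fitted, failure differed from wild type by 0.33 ± 0.13 (limma adjusted p = 0.425, unadjusted p = 0.0255) and from hypertrophy by 0.45 ± 0.12 (log2, SE; limma adjusted p = 0.257, unadjusted p = 0.00258). The third probe set was below the floor in 15 of 16 arrays and carries no comparison. The likeness of the brightest probe set was highest to Ddx47 (r = 0.79), Dnase1l2 (r = 0.78) and Atp6v1a (r = 0.73), which encode an RNA helicase, a deoxyribonuclease and a subunit of the vacuolar proton pump. Of tested probe sets, 1.29% had r above 0.5 with this Timp2 probe set.

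**Figure D3:**
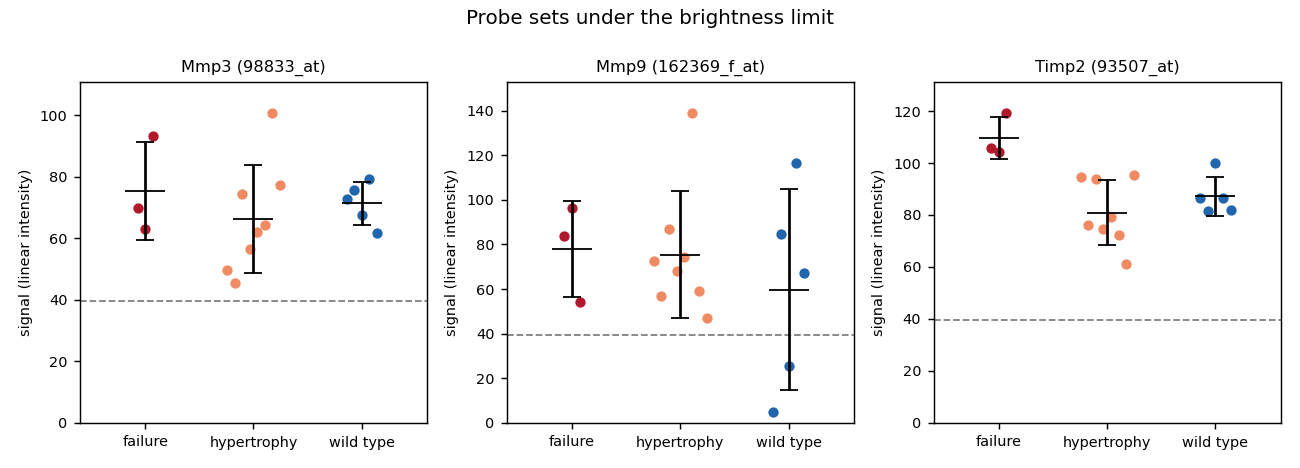
Signal (linear intensity, y axis from 0) of 3 probe sets under the brightness limit in each array, by group (failure n = 3, hypertrophy n = 8, wild type n = 5); points are arrays, lines are means, bars are 1 SD and the dashed line is the floor of 39.5. The failure arrays lie above all others for Timp2, and 2 wild type arrays are below the floor for Mmp9.

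Mmp2 encodes gelatinase A, a constitutively expressed protease that degrades denatured collagen and basement membrane. Its tested probe set had signals of 139, 110 and 93.6 in failure and 106, 88.8, 98.1, 96.9 and 112 in wild type. Failure replicate 1 thus lay above the wild type range, and replicates 2 and 3 lay inside it. In hypertrophy the signal ran from 103 through a median of 119 to 167, and 5 of 8 hypertrophy arrays were above the highest wild type array. Means were 125 ± 21.7 over hypertrophy arrays (SD, n = 8) and 100.4 ± 8.94 over wild type arrays (SD, n = 5). The log2 difference was 0.30 ± 0.12 (SE), a ratio of 1.23 with a 95% interval of 1.03 to 1.48 (limma adjusted p = 0.960, unadjusted p = 0.0265). It was the member with the smallest p in this comparison, in which 4.47% of all tested probe sets had an unadjusted p under 0.05. This probe set reached the array median in 5 hypertrophy, 1 failure and 1 wild type arrays. Without the hypertrophy arrays it would not have been tested, so its p and interval are no independent support for a rise in hypertrophy. When the median had to be reached in at least 8 arrays, 0 members had an unadjusted limma p under 0.05 in this comparison. The difference was 0.26 without hypertrophy replicates 6 and 7.

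Failure differed from wild type in Mmp2 by 0.17 ± 0.16 (log2, SE; limma adjusted p = 0.768), but by 0.016 without failure replicate 1 and 0.30 without replicate 3. Failure against hypertrophy gave -0.14 ± 0.15 (limma adjusted p = 0.814), -0.0029 without failure replicate 3 and -0.29 without replicate 1. A second Mmp2 probe set was below the floor in all 16 arrays. Map3k4, a kinase of the stress-activated cascades (r = 0.86), Agfg1 (r = 0.84) and Klkb1, the plasma kallikrein gene (r = 0.78), were most like Mmp2 over the 16 arrays. Of tested probe sets, 3.34% had r above 0.5 with Mmp2.

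Mmp14 encodes the membrane-type protease that activates the Mmp2 proenzyme. Signals were 156, 144 and 123 in failure and 159, 137, 160.4, 166 and 131 in wild type, and ran from 102 through a median of 141 to 191 in hypertrophy. All groups overlapped. Differences were -0.10 ± 0.17 in failure against wild type, -0.06 ± 0.13 when hypertrophy was set against wild type and -0.04 ± 0.16 for failure against hypertrophy (log2, SE; limma adjusted p = 0.890, adjusted p = 0.985 and adjusted p = 0.968). The 95% interval in failure against wild type was a ratio of 0.728 to 1.20. Each of the 3 changed sign in some alternative fit. Celsr2, a cadherin receptor gene (r = 0.89), Taf6, a subunit of transcription factor TFIID (r = 0.82), and Adam3 (r = 0.82) were most like Mmp14. Of tested probe sets, 8.50% had r above 0.5 with Mmp14.

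Mmp9 encodes gelatinase B, which neutrophils and macrophages release and which degrades the same substrates as Mmp2. Its tested probe set had signals of 324, 400.2 and 425 in failure and 549.8, 364, 356, 414 and 488 in wild type. In hypertrophy it ran from 360.1 through a median of 398 to 511, inside the wild type range. The differences were -0.17 ± 0.16 in failure against wild type (0.889-fold, 95% interval 0.703 to 1.12), -0.04 ± 0.13 when hypertrophy was set against wild type and -0.13 ± 0.15 for failure against hypertrophy (log2, SE; limma adjusted p = 0.765, adjusted p = 0.992 and adjusted p = 0.823). The first was -0.054 without failure replicate 1, the second turned to 0.050 without wild type replicate 1, and the third was -0.013 without failure replicate 1 and -0.21 without replicate 3. Of the leukocyte markers 13 of 16 were tested, with summed signals of 3058 to 3747 in failure, 2829 to 3534 in hypertrophy and 2777 to 3696 in wild type, and all values were above 0. Among the neutrophil markers, the brightest probe sets of S100a9 (297 to 507), Mpo (177 to 614) and Elane (92.3 to 127) were above the floor in all 16 arrays, and S100a8 was below it in 13. The part of leukocyte content was not tested. Tmem266 (r = 0.79), Hoxc5 (r = 0.75) and Asns, the asparagine synthetase gene (r = 0.73), were most like Mmp9. Of tested probe sets, 1.58% had r above 0.5 with Mmp9.

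The second Mmp9 probe set bears a suffix that Affymetrix gives to sets of a shared sequence family, and it was under the brightness limit. It varied more than the first, with 83.7, 96.2 and 54.1 in failure against 4.78, 84.6, 25.7, 116 and 67.1 in wild type, and 47.2 to 139 in hypertrophy. Its failure difference from wild type was 0.25 ± 0.39 when all probe sets were fitted (log2, SE; limma adjusted p = 0.993), opposite in sign to the first set, and neither was called.

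Mmp3 encodes stromelysin 1, which cuts proteoglycans and activates other proenzymes. Its single probe set did not reach the array median in any array. Signals were 69.8, 63.1 and 93.4 in failure and 72.8, 75.9, 67.6, 79.3 and 61.7 in wild type, and ran from 45.7 through a median of 63.2 to 101 in hypertrophy. All groups overlapped. With all probe sets fitted, the differences were 0.06 ± 0.22 in failure against wild type, -0.14 ± 0.17 when hypertrophy was set against wild type and 0.21 ± 0.20 for failure against hypertrophy (log2, SE; limma adjusted p = 1, adjusted p = 1 and adjusted p = 0.891). A second Timp1 probe set lay below the floor in all 16 arrays.

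As a group, the 6 tested members had a median log2 difference of 0.05 in failure against wild type (3 positive, 3 negative), beside 0.04 over all tested probe sets of the first type. In hypertrophy against wild type it was 0.11 (4 positive, 2 negative) beside -0.01. In failure against hypertrophy it was -0.08 (2 positive, 4 negative) beside 0.05. The first and second comparisons share the wild type arrays. In failure against wild type the proteases Mmp2, Mmp9 and Mmp14 stood at 0.17, -0.17 and -0.10, and the inhibitors Timp1, Timp2 and Timp3 at 0.32, -0.06 and 0.94. In hypertrophy against wild type the proteases stood at 0.30, -0.04 and -0.06 and the inhibitors at 0.11, 0.12 and 0.39.

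Genes that work with these enzymes were followed on both array types in 5 lists, with 74 tested genes. On the second type 0.357% of tested probe sets passed in failure against wild type, 0.171% did when hypertrophy was set against wild type and 0.0286% for failure against hypertrophy. None of the 74 genes passed in any comparison in limma. Unadjusted limma p-values under 0.05 were found for 18, 4 and 13 of them in the same order, where 10.7%, 4.47% and 10.1% of probe sets of the first type and 12.2%, 9.77% and 8.67% of the second lay.

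Among other metalloproteinases 8 of 19 were tested, with a median difference of 0.07 in failure against wild type. Mmp23, a membrane-anchored member without the usual cysteine switch, came closest to the threshold. Its signal was 310.4 ± 37.2 over failure arrays (SD, n = 3), 260.5 ± 22.3 over hypertrophy arrays (SD, n = 8) and 206 ± 29.8 over wild type arrays (SD, n = 5). Failure differed from wild type by 0.60 ± 0.13 (log2, SE; limma adjusted p = 0.0634), and hypertrophy by 0.35 ± 0.10 (limma adjusted p = 0.275). It passed in 6 alternative fits of failure against wild type besides the weighted one. Mmp11, stromelysin 3, had 551 ± 39.1 over failure arrays (SD, n = 3) and 692 ± 107 over hypertrophy arrays (SD, n = 8), a log2 difference of -0.32 ± 0.13 (limma adjusted p = 0.409).

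ADAM and ADAMTS genes, the related sheddases and proteoglycan-cutting proteases, had 10 of 20 tested and a median of 0.16 in failure against wild type, with 9 positive. Adamts10, a protease bound to fibrillin microfibrils, differed by 0.68 ± 0.25 (log2, SE; limma adjusted p = 0.264). Adam10, a sheddase of Notch and cadherins, differed by 0.30 ± 0.13 (limma adjusted p = 0.410). In hypertrophy against wild type the list median was -0.04, and Adamts4, an aggrecanase, had 0.33 ± 0.11 (limma adjusted p = 0.349). In failure against hypertrophy the list median was 0.16, with 8 positive and 2 negative. Adamts10 had 0.76 ± 0.23 there (log2, SE; limma adjusted p = 0.402).

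Activators and inhibitors of matrix proteolysis had 21 of 28 tested and a median of -0.05 in failure against wild type. Plaur, the receptor that holds urokinase at the cell surface, had 118 ± 28.7 over failure arrays (SD, n = 3) and 175 ± 12.7 over wild type arrays (SD, n = 5), a difference of -0.60 ± 0.15 (log2, SE; limma adjusted p = 0.136), and -0.38 without failure replicate 2. Cma1, the mast cell chymase, differed by -0.29 ± 0.11 (limma adjusted p = 0.337), and by -0.19 without failure replicate 1. Ctsk differed by 0.35 ± 0.15 (limma adjusted p = 0.401), and by 0.22 without failure replicate 2. In failure against hypertrophy the list median was 0.07, with 12 positive and 9 negative. Plaur had -0.43 ± 0.14 there (log2, SE; limma adjusted p = 0.317).

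Matrix substrates had 21 of 25 tested, 5 of them also fibroblast markers, and the highest list median in failure against wild type, 0.36, with 18 positive. Bgn (biglycan), Fn1 (fibronectin) and Eln (elastin) differed by 1.61 ± 0.38, 1.15 ± 0.29 and 0.80 ± 0.19 (log2, SE; limma adjusted p = 0.117, adjusted p = 0.128 and adjusted p = 0.117). Beside them, 13 fibroblast markers were tested on either type, with a median difference of 0.60 in the same comparison. Of these, 6 had an unadjusted limma p under 0.05, all higher in failure, where 10.7% (first type) and 12.2% (second type) of all tested probe sets lay. Of the 13 differences, 11 were positive and 2 negative, the latter Ddr2 at -0.18 and Col1a2 at -0.07. The part of fibroblast content in the substrate differences was not tested. The substrate median in hypertrophy against wild type was 0.05. In failure against hypertrophy it was 0.33, with 17 positive and 4 negative. There 7 of the 21 substrates had an unadjusted limma p under 0.05, all higher in failure, beside 10.1% of all tested probe sets of the first type. Eln, Fn1 and Bgn had the smallest p there, with differences of 0.78 ± 0.17, 1.13 ± 0.26 and 1.23 ± 0.35 (log2, SE; limma adjusted p = 0.147, 0.156 and 0.214). Among inducers of metalloproteinase and inhibitor genes, 14 of 23 were tested, with a median of 0.11 in failure against wild type. In that comparison Tgfb3, a transforming growth factor, differed by 1.03 ± 0.25 (log2, SE; limma adjusted p = 0.117), and Egr1, an immediate early factor, by 0.91 ± 0.43 (limma adjusted p = 0.467). Without failure replicate 3, Egr1 passed at 1.73 (limma adjusted p = 0.0119), as did Bgn at 2.14, Fn1 at 1.47 and Tgfb3 at 1.25 (log2; limma adjusted p = 0.0119, 0.028 and 0.0428). The collagen gene Col1a1, named after its value was seen, passed there too (limma adjusted p = 0.0146). Egr1 was 0.45 without failure replicate 1 and 0.54 without replicate 2, and Tgfb3 also passed without hypertrophy replicate 1 (limma adjusted p = 0.0227). Jun, a component of AP-1, differed by -0.22 ± 0.09 in hypertrophy against wild type (limma adjusted p = 0.960). Failure against hypertrophy gave 0.88 ± 0.23 for Tgfb3 (log2, SE; limma adjusted p = 0.2), beside an inducer median of 0.16 with 10 positive and 4 negative.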

How the data were processed

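Ventricular RNA was measured on 2 Affymetrix array types with 16 arrays each. The deposited intensities, 1 value per probe set, are linear, with 1 as the lowest value (summary method, scaling and build not given in the sources used here). Between arrays, trimmed means varied by 4.82% and medians by 6.60% on the first type, so the values were used as deposited. A floor at the 20th percentile of each type (39.5 and 27.5) preceded log2, so changes in dim probe sets are understated. Gene names came from the annotation of the platform, and 12 and 20 symbols were replaced by their GRCm38.p6 form. A single gene was annotated for 10833 probe sets of the first type (396 had more, 1193 had no gene) and for 10581 of the second (178 and 1652). Tested were probe sets that reached the median of the array in 3 or more arrays, 6980 of 12488 and 7004 of 12477. Each type was fitted with limma 3.58.1 (R 4.3.3), with 3 groups in 1 model, two-sided, and Benjamini-Hochberg adjustment per type and comparison. The fit was tested on simulated data. Figures were drawn with matplotlib 3.10.9. Arrays give no counts; their number limits the precision, with a median standard error of 0.17 (log2) in failure against wild type and 0.13 in hypertrophy against wild type. The members, lists, markers and alternatives were chosen with earlier results of these data known. All member probe sets are named. From the lists, genes among the 3 of smallest p are named, though not for every list in every comparison. For likeness the 3 genes of highest Pearson r over 16 arrays are named. A list gene stands for its brightest tested probe set, on the first type where it has one. Promoter windows are from RefSeq.

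Alternatives covered scaling, floor, filter, variance model, array weights, the groups fitted, the replicate number as a block, RNA quality ratios, Xist signal and leaving out arrays. Same-numbered arrays did not deviate together, so no pairing was used.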

Additional observations from a re-analysis of the deposited data

Results flagged for a closer look

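In 3 of 24 sets of hypertrophy or wild type arrays, 1 array lay farther from the rest than Dixon's 95% limit; chance alone marks about 1 in 20. Each concerns a probe set under the brightness limit. The dimmer Mmp9 probe set had a signal of 139 in hypertrophy replicate 6, an array of low Gapdh ratio, against 86.8 in the next highest. The second Timp2 probe set had 99.95 in wild type replicate 3, just under the lowest failure array at 104. The third Timp2 probe set had 56.8 in hypertrophy replicate 3, the single array above the floor for that probe set.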

How the results depend on the processing

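The count of called members was 0 in each comparison under all alternatives run except array weights, which gave 2 (Timp1 and Timp3) in failure against wild type. In that comparison the 74 pathway genes gave 0 calls with all arrays and 20 with array weights, 3 with the 2 groups alone, and 1 each with log2(signal + 32), a variance trend with robust estimation, the Gapdh or Actb ratio as a covariate, and without hypertrophy replicates 6 and 7. With no filter, which admits further genes, the single call was Tgfb2 (1), which is not among the 74. Leaving out 1 array gave 0 to 5, the most without failure replicate 3. In failure against hypertrophy the 74 gave 8 with array weights and 0 to 4 when 1 array was left out (4 without failure replicate 3), and no filter gave 1, again Tgfb2. Over all tested probe sets of the first type, calls in failure against wild type were 10, with 3 under the replicate block, 122 with the 2 groups alone, 1002 with array weights, 7 to 42 under the other alternatives, and 0 to 51 when 1 array was left out (51 without failure replicate 3). In failure against hypertrophy they were 0, with 274 under array weights and up to 24 without failure replicate 3. Of the first type's calls in failure against wild type 9 of 10 were higher, against 20 of 30 with quantile scaling and 15 of 33 with median scaling; on the second type 20 of 25 were, against 20 of 35 and 19 of 40. On the second type the 25 calls in failure against wild type became 6 with the replicate block and 428 with array weights (22 to 193 under the others); the 12 in hypertrophy against wild type became 3 and 22, and the 2 in failure against hypertrophy became 30 with array weights.

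Signs turned for differences near 0. Mmp14 in failure against hypertrophy was 0.055 with the replicate block and 0.055 with the Actb ratio, and -0.11 to 0.060 when 1 array was left out. In failure against wild type it was 0.012 with the Actb ratio, as was Mmp8 at 0.15 (-0.14 without it), and in hypertrophy against wild type -0.12 to 0.0069 when 1 array was left out. Over the same single omissions, Timp2 was -0.26 to 0.14 in failure against wild type and -0.39 to 0.014 in failure against hypertrophy, and Mmp9 -0.11 to 0.050 in hypertrophy against wild type. The cause was not tested. Timp3 in failure against wild type stayed positive throughout, from 0.79 without wild type replicate 5 to 1.30 with the Actb ratio. Timp1 did so too, from 0.23 without failure replicate 2 to 0.45 with array weights. It was also 0.23 with median scaling, and with Xist as a covariate the X-linked Timp1 was 0.30. Members with an unadjusted limma p under 0.05 in failure against wild type numbered 2 in the main fit. Their number was 1 with median scaling and 1 without failure replicate 2. Correlations of same-numbered arrays after subtracting group means ran from -0.19 to 0.36, with 3 of 11 above 0.1 and 3 of 11 best with their own number, so the numbers do not pair the samples; the replicate block called 0 members.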

Other observations

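Among the tested members the inhibitors Timp2 and Timp3 ran together across the 8 hypertrophy arrays (r = 0.68), while Timp1 ran opposite to both (r = -0.75 with Timp2 and -0.55 with Timp3) and with Mmp14 (r = 0.70). Timp2 and Mmp14 ran opposite over all 16 arrays (r = -0.61, and -0.64 after subtracting group means). Over all 16 arrays the other pairs named here were weaker, at r = 0.29 for Timp2 with Timp3, -0.25 for Timp1 with Timp2, 0.19 for Timp1 with Timp3, opposite in sign to the hypertrophy value, and 0.15 for Timp1 with Mmp14. These values come from 15 pairs, share arrays and RNA quality, and are descriptions without a test. Atrial muscle markers, 3 of 5 tested on the first type, had summed signals of 4051 to 5901 in failure, 957 to 4630 in hypertrophy and 1179 to 3344 in wild type. Myl7 averaged 519 ± 225 over failure arrays (SD, n = 3) and 172 ± 76.7 over wild type arrays (SD, n = 5). Nppa averaged 3946 ± 473 over failure arrays and 1805 ± 836 over wild type arrays, and so made up most of the summed signal in both groups. Myl4 averaged 288 ± 383 over failure arrays and 253 ± 148 over wild type arrays, with a log2 difference of -0.61, although its mean signal was higher in failure. With an SD above its mean there, Myl4 varied widely between failure arrays. The part of atrial tissue in these signals was not tested.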
